A study of Mus musculus with 8 samples.

Results

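The genes described here encode 7 subunits of the GABA-A receptor that are prominent in the hippocampus: the alpha subunits Gabra2, Gabra3, Gabra4 and Gabra5, the beta subunits Gabrb1 and Gabrb2, and the delta subunit Gabrd. They were taken by gene symbol, by a rule that uses no measured value but was set with earlier results of these data known, and are 7 of 29442 genes in the count table. All 7 were among the 27612 genes tested. The other 12 GABA-A subunit genes are summarised beside them.

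The libraries came from ventral hippocampus of female C57BL/6 J mice aged 6 to 8 weeks, labelled as hippocampus. For 21 days the mice received subcutaneous injections of either dehydroepiandrosterone (DHEA) at 30 mg/kg per day or sesame oil, the vehicle. DHEA is an androgen precursor, in humans made mainly by the adrenal gland, and is also a neurosteroid, a steroid that acts in the brain. Poly(A) RNA was sequenced in 4 libraries labelled DHEA (3, 4, 7 and 11) and 4 labelled sesame oil (5, 9, 10 and 16), and no genetic modification is stated for either group. By the methods of the study, mice of both groups went through open field, forced swim and tail suspension tests before hippocampal tissue was taken. The comparison asks which hippocampal transcripts differ after repeated DHEA in mice tested in this way. Directions follow the treatment label of each library. The fold changes tabulated with the study carry the opposite sign to those computed from the labels, so the groups are named by their labels throughout, and every direction given here would turn if the labels were the ones in error.

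GABA-A receptors are chloride channels opened by GABA, the main inhibitory transmitter of the brain. Each is a ring of subunits, most often alpha and beta subunits together with a gamma or a delta subunit. Receptors with a gamma subunit are typical of synapses, whereas those with the delta subunit lie outside synapses and respond to the low ambient level of GABA, giving tonic inhibition. Neuroactive steroids bind these receptors: allopregnanolone increases their current, delta-containing receptors respond strongly to it, and DHEA sulfate is known as an inhibitor.

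The total count per library was 38038361, 36792550, 35748416 and 36206289 in the DHEA-labelled libraries 3, 4, 7 and 11, and 32757366, 33109760, 35418297 and 31483772 in the sesame oil libraries 5, 9, 10 and 16. Every DHEA-labelled library was deeper than every sesame oil library. Counts are given below as CPM, counts per 1000000 after scaling each library with the TMM method, and levels of different genes are compared as FPKM, which is also per length of the gene. DHEA libraries 3 and 4 stood apart from the other 6 on the first principal component of all expressed genes, which held 33.4% of the variance: they lay at -21.8 and -35.6, whereas the other 6 lay between 3.62 and 12.7. The 13 mitochondrially encoded genes took 7.87%, 9.34%, 7.58% and 7.29% of counts in the DHEA-labelled libraries and 6.37%, 6.87%, 7.23% and 6.99% in the sesame oil libraries, again without overlap. The correlation across genes between expression and GC content was -0.0823, -0.113, -0.0723 and -0.00445 in the DHEA-labelled libraries and 0.0891, 0.136, 0.0558 and 0.0785 in the sesame oil libraries. Fold changes of the subunit genes described here and some numbers of calls are therefore also given with libraries 3 and 4 left out. That alternative was chosen after seeing the data, and the marker lists, shares and ratios are not given in it. Depth, mitochondrial share and GC trend did not overlap between the groups, so their part in a group difference cannot be told apart from that of the treatment.

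Marker genes of the hippocampal subfields were present. C1ql2, a marker of dentate granule cells, averaged 25.2 FPKM and the CA1 marker Wfs1 averaged 29.3 FPKM. Pcp4, a marker of CA2 within the hippocampus, averaged 185 FPKM. These bulk levels do not show which cells or tissue the RNA came from. How much neighbouring tissue was included was not measured.

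Gabra2, Gabra4 and Gabrb1 are neighbours on chromosome 5, where the order of protein-coding genes is Gabrg1, Gabra2, Cox7b2, Gabra4 and Gabrb1. Gabra5 lies beside Gabrg3 on chromosome 7, Gabrb2 beside Gabra6 on chromosome 11, Gabra3 beside Gabrq on chromosome X, and Gabrd between Prkcz and Cfap74 on chromosome 4. The sequences just upstream of the 3 neighbours on chromosome 5 are shown because these genes share a cluster that holds Gabra4, the gene whose groups did not overlap. Each is the 250 bases before the start site, 5′ to 3′ on the strand of the gene, from the RefSeq annotation of build GRCm38.p6. Capitals mark GC boxes (GGGCGG or its reverse complement CCGCCC), the binding motif of Sp family factors.
Gabra4, chr5:71658309-71658558, minus strand: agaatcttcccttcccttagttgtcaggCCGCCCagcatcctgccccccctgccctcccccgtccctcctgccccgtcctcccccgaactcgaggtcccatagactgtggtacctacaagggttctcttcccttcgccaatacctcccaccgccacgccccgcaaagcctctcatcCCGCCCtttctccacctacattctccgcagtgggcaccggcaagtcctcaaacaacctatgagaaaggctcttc
Gabra2, chr5:71095850-71096099, minus strand: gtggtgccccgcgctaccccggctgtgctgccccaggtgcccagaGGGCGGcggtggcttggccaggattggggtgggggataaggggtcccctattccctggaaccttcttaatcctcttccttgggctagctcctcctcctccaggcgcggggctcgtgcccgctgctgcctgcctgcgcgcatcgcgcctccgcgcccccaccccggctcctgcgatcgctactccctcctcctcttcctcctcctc
Gabrb1, chr5:71699682-71699931, plus strand: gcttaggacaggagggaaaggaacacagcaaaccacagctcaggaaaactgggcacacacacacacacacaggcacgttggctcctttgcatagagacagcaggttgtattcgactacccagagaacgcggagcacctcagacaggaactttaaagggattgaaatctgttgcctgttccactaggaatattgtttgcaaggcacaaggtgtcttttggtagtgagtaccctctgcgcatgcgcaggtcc
The Gabra4 window held 2 GC boxes and was 61.2% GC, the Gabra2 window held 1 and was 70% GC, and the Gabrb1 window held 0 and was 50.8% GC. The window of a second Gabrb1 start site also held 0 and was 64.4% GC, so the GC content depends on the start site taken. A GC box occurred in 32.7% of the 32851 RefSeq promoter windows of this length. None of the 3 windows shown held the androgen response half-site AGAACA or its reverse complement TGTTCT, which was found in 16.1% of all windows, and the full palindromic element, AGAACA followed after 3 bases by TGTTCT, was in 3 of all windows and in none of the 10 windows of the 6 genes with an entry. Of these 6, Gabrb2 alone had windows with a half-site. A match or its absence describes these letters only. That second start site of Gabrb1 lies within the 5′ part of Gabra4 on the opposite strand, so that by start sites the 2 genes overlap by 388 genomic bases. Whether these bases lie in exons of both was not examined. In another annotation, GENCODE, 0 Gabrb1 transcripts held the bases just after that start site, against 1 for the site shown. Whether counting used strand is not given in the sources used here. If it did not, reads from any shared exon bases cannot be told apart between the genes.

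Ordered by mean FPKM over the 8 libraries, Gabra5 was the highest of the 7 at 46.5 ± 4.19 FPKM (SD, n = 8), followed by Gabrb2 at 37.3 ± 2.59 FPKM and Gabra4 at 26.96 ± 2.45 FPKM. Gabrb1 averaged 21.3 ± 1.012 FPKM, Gabra3 20.01 ± 2.03 FPKM, Gabra2 18.7 ± 1.38 FPKM and Gabrd 8.68 ± 1.03 FPKM. Gabra5 exceeded Gabrb2 in 7 of 8 libraries, while Gabrb2 exceeded Gabra4, Gabra4 exceeded Gabrb1 and Gabra2 exceeded Gabrd in 8 of 8. Gabrb1, Gabra3 and Gabra2 were not separated beyond their spread: Gabrb1 was above Gabra3 in 5 of 8 libraries and Gabra3 above Gabra2 in 6 of 8. The order per length was different from that of the counts, because the genes differ in length. Gabrb1 had 10844.5 counts per library on average against 3971.6 for Gabra4, but the length implied by the deposited FPKM was 14565 bases for Gabrb1 and 4201 bases for Gabra4.

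Gabra4 was the one gene of the 7 whose groups did not overlap. No gene passed the threshold of 0.05 on the adjusted p (quasi-likelihood test of edgeR, Benjamini-Hochberg), 0% of the 27612 genes tested, and none of the 7 subunit genes did. At an unadjusted p under 0.05, 2571 genes or 9.31% were called in either direction and 1332 or 4.82% were higher in the DHEA-labelled libraries. Among the 12780 genes that averaged 100 counts or more, to which all 7 subunit genes belong, these shares were 15.7% and 8.08%. The subunit genes gave 1 call of 7, Gabra4, higher in the DHEA-labelled libraries, a share close to the background. By the thresholds used in the study, an unadjusted p under 0.05 and a change of 2 times or more in either direction (0.5 or below when lower), 442 genes or 1.6% were called and 0 of the 7. The number of genes was 164 in DESeq2, the tool named by the study, and 62 in edgeR with a stricter filter on counts (filterByExpr). The median log2 fold change of the 7 genes was 0.06, against 0.01 over all genes tested. With the GC trend of each library removed, the median of the 7 was 0.0085, and Gabra3 was at 0.01, Gabra4 at 0.14, Gabra5 at 0.07, Gabrb1 at -0.10, Gabrb2 at 0.02 and Gabrd at -0.01.

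**Figure D1:**
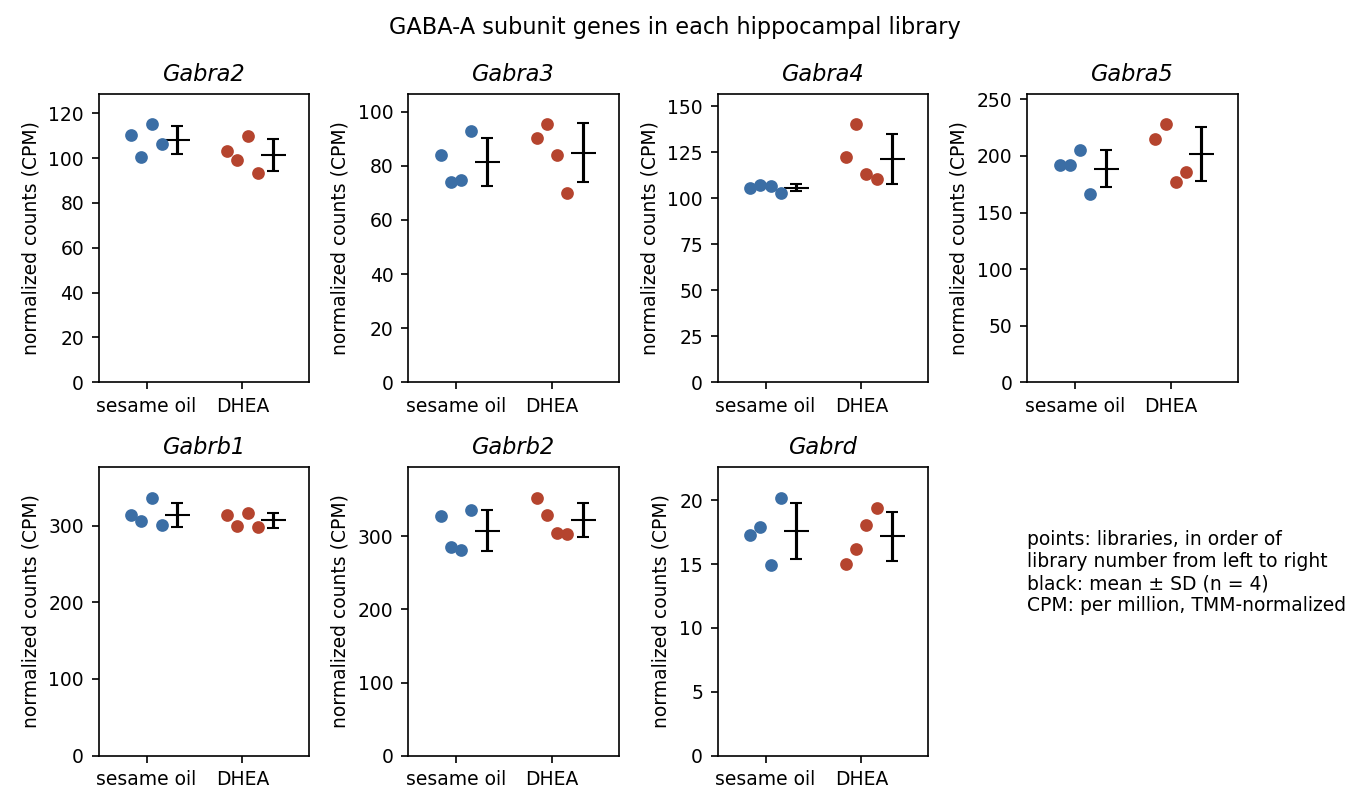
Normalized counts (CPM, axis from 0) of the 7 subunit genes in each of the 4 sesame oil (blue) and 4 DHEA-labelled (red) libraries, with the mean and SD of each group in black. The lowest DHEA-labelled value of Gabra4, 110.2 CPM, lies above the highest sesame oil value, 107 CPM, while the other 6 genes overlap.

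The alpha subunits decide much of where a receptor sits and which drugs it answers to. Gabra4 encodes the alpha4 subunit, which pairs with delta in extrasynaptic receptors of the dentate gyrus and thalamus. It measured 122, 140.0, 113 and 110.2 CPM in DHEA-labelled libraries 3, 4, 7 and 11, and 105, 107, 107 and 103 CPM in sesame oil libraries 5, 9, 10 and 16. Library 4 was far above the rest, and the 2 lower DHEA-labelled libraries were just above the sesame oil range. The group means were 121 ± 13.5 CPM and 106 ± 1.95 CPM (SD, n = 4 each), a difference of 14.9%. The log2 fold change was 0.20 (standard error 0.07, 95% interval 0.05 to 0.35), with an edgeR p of 0.0121 and an adjusted p of 0.388. The adjusted p ranged from 0.144 to 0.763 over the alternatives. With the GC trend of each library removed, the log2 fold change was 0.14, with an unadjusted p of 0.0494 and an adjusted p of 0.583 (edgeR). A two-sided exact permutation test of the CPM gave p = 0.0286, the smallest that 4 libraries against 4 allow. Among genes averaging 100 counts or more, 4.23% had groups without overlap and higher in the DHEA-labelled libraries, and 8.46% had groups without overlap in either direction. The Gabra4 difference was 0.12 with an unadjusted p of 0.0765 and an adjusted p of 0.727 (edgeR) when DHEA library 4 was left out, and 0.07 with 0.174 and 0.763 when libraries 3 and 4 were left out.

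Gabra5 encodes the alpha5 subunit, which is concentrated in the hippocampus, largely outside synapses of pyramidal cells. It measured 215, 228, 177 and 186 CPM in the DHEA-labelled libraries and 192, 192, 205 and 166 CPM in the sesame oil libraries. Libraries 3 and 4 were again the highest, and the other DHEA-labelled libraries lay within the sesame oil range. On the log2 scale the difference was 0.09 (standard error 0.08, 95% interval -0.08 to 0.26), with an adjusted p of 0.666 in edgeR and an exact permutation p of 0.400. Without libraries 3 and 4 it was -0.06, and it was 0.02 without DHEA library 4 and 0.03 without sesame oil library 16.

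Gabra2 encodes the alpha2 subunit, found at synapses on the axon initial segment and dendrites of pyramidal cells and linked to the anxiety-reducing action of benzodiazepines. It measured 103, 99.2, 109.8 and 93.2 CPM in the DHEA-labelled libraries and 110.5, 101, 115 and 106 CPM in the sesame oil libraries. The groups overlapped, with the lowest value in DHEA library 11 and the highest in sesame oil library 10. The log2 fold change was -0.09 (standard error 0.07, 95% interval -0.23 to 0.05), with an adjusted p of 0.663 in edgeR and an exact permutation p of 0.200. With the GC trend of each library removed, it was -0.18 with an unadjusted p of 0.0138 and an adjusted p of 0.480, so that the direction was kept and the unadjusted p moved below 0.05. It was -0.05 without DHEA library 11 and -0.06 without sesame oil library 10. The adjusted p of Gabra2 was at least 0.417 over the alternatives.

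Gabra3 encodes the alpha3 subunit, which is more abundant in cortex and in brainstem monoamine neurons than in the hippocampus. It measured 90.4, 95.3, 84.0 and 69.9 CPM in the DHEA-labelled libraries and 83.8, 73.9, 74.8 and 93.0 CPM in the sesame oil libraries. Both groups spanned nearly the same range. Its log2 fold change was 0.06 (standard error 0.09, 95% interval -0.13 to 0.25), with an adjusted p of 0.821 in edgeR and an exact permutation p of 0.657. It was -0.09 without libraries 3 and 4.

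Of the beta subunits, which carry part of the GABA binding site and the anchoring signals of the receptor, Gabrb1 encodes beta1. It measured 314, 299.6, 316 and 298 CPM in the DHEA-labelled libraries and 314, 305, 336 and 300.2 CPM in the sesame oil libraries. The 2 groups were almost on top of each other, apart from the high sesame oil library 10. The log2 fold change was -0.03 (standard error 0.06, 95% interval -0.16 to 0.09), with an adjusted p of 0.852 in edgeR and an exact permutation p of 0.457. An increase or decrease of Gabrb1 beyond this interval was therefore not seen with 4 libraries a group, which does not show that the groups are equal.

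Gabrb2 encodes beta2, the beta subunit of many synaptic receptors. It measured 352, 329, 304 and 303 CPM in the DHEA-labelled libraries and 328, 285, 282 and 335 CPM in the sesame oil libraries. The highest value was in DHEA library 3, and the groups overlapped. The difference on the log2 scale was 0.07 (standard error 0.07, 95% interval -0.08 to 0.22), with an adjusted p of 0.712 in edgeR and an exact permutation p of 0.486. It was -0.02 without libraries 3 and 4.

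Gabrd encodes the delta subunit, a component of extrasynaptic receptors that respond strongly to neurosteroids such as allopregnanolone. It was the lowest of the 7 and measured 15.0, 16.2, 18.1 and 19.4 CPM in the DHEA-labelled libraries and 17.3, 17.9, 14.9 and 20.2 CPM in the sesame oil libraries. The groups spanned the same range, and libraries 3 and 4, which were highest for Gabra4 and Gabra5, were the lowest of the DHEA-labelled libraries for Gabrd. A log2 fold change of -0.03 was obtained (standard error 0.11, 95% interval -0.27 to 0.20), with an adjusted p of 0.935 in edgeR and an exact permutation p of 0.8286. Without libraries 3 and 4 it was 0.09.

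**Figure D2:**
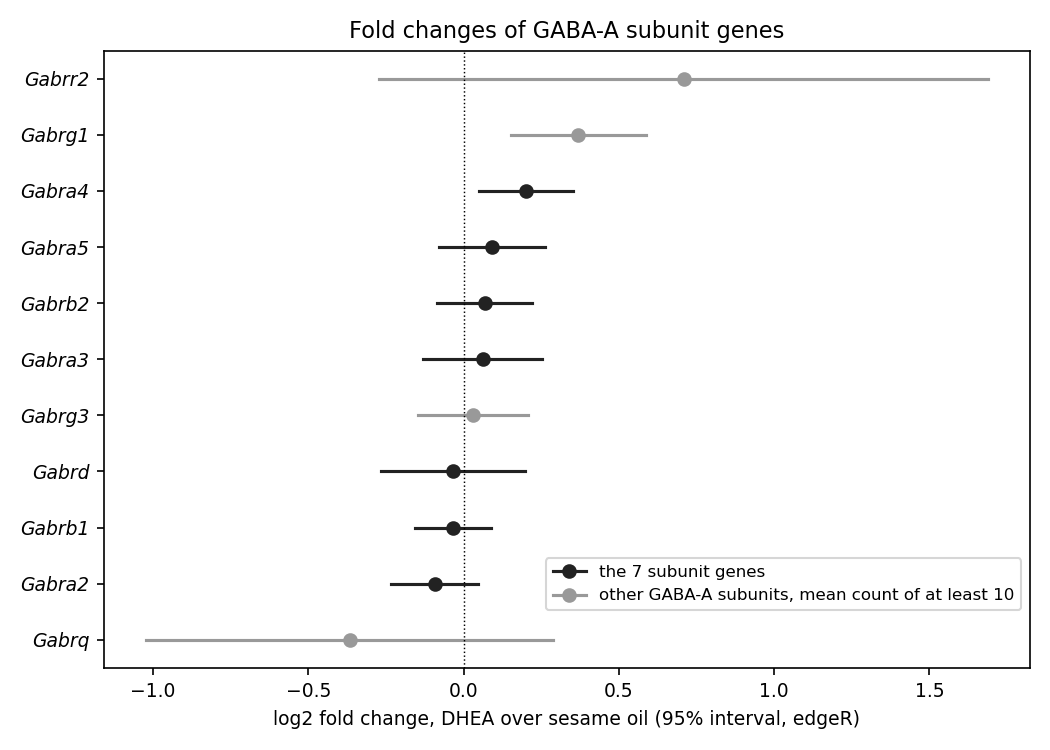
Log2 fold change of the 7 subunit genes and of the other GABA-A subunit genes named here that averaged 10 counts or more, DHEA-labelled over sesame oil libraries (n = 4 each), with 95% intervals from edgeR. The 7 subunit genes (black) lie between -0.09 and 0.20, and the intervals of Gabra4 and, among the other subunits (grey), Gabrg1 do not cross 0, although neither passed the adjusted threshold.

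The other 12 subunit genes gave 1 call at an unadjusted p under 0.05, against the background of 9.31% of all genes tested, and a median log2 fold change of 0.10. The number of calls was 2 without sesame oil library 16 and 2 without DHEA libraries 3 and 4. Gabrg1, which encodes gamma1 and lies next to Gabra2 on chromosome 5, measured 30.04, 38.3, 35.0 and 26.8 CPM in the DHEA-labelled libraries and 23.0, 28.0, 24.3 and 25.3 CPM in the sesame oil libraries. Sesame oil library 9 lay above DHEA library 11, so the groups overlapped. The log2 fold change of Gabrg1 was 0.37 (standard error 0.10), with an unadjusted p of 0.00222 and an adjusted p of 0.275 in edgeR. The gene is known to be expressed by glia as well as by some neurons.

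Gabrg3, encoding gamma3, had a log2 fold change of 0.03 and groups that overlapped. Gabrq, encoding theta, had 25 to 54 counts per library and a log2 fold change of -0.37 (adjusted p = 0.666, edgeR), and Gabrr2, encoding rho2, had 11 to 56 counts and 0.71 (adjusted p = 0.645, edgeR). Gabra6, known from cerebellar granule cells, had 0 to 12 counts per library, and Gabre, Gabrr1 and Gabrr3 had 1 to 19, 1 to 6 and 0 to 7 counts, all too few for a fold change to be read. Gabrp had 1 count in DHEA library 3 and 0 in the other 7 libraries.

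To see whether the make-up of the alpha class differed, Gabra4 was taken as a share of the summed FPKM of the alpha subunit genes in the table. It was 13.9%, 15.7%, 14.8% and 14.9% in the DHEA-labelled libraries and 13.5%, 14.5%, 14.4% and 13.0% in the sesame oil libraries. The groups overlapped in this share, because sesame oil libraries 9 and 10 lay above DHEA library 3. Their means were 14.8% ± 0.74 and 13.8% ± 0.75 (SD, n = 4 each). Over the 4 alpha genes described here alone, a denominator chosen after seeing the data, Gabra4 was 24.1% to 25.96% in the DHEA-labelled and 22.5% to 23.8% in the sesame oil libraries, without overlap, so whether the shares overlap depended on the denominator. Over these 4 genes the means were 15.8% ± 1.74 and 17.7% ± 0.62 for Gabra2, 17.7% ± 1.04 and 18.0% ± 2.35 for Gabra3, and 41.6% ± 1.84 and 41.3% ± 2.60 for Gabra5, in the DHEA-labelled and sesame oil libraries, and these 3 overlapped.

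Of the ratios taken between genes, that of Gabra4 to its neighbour Gabrb1 was the only one without overlap. By FPKM it was 1.35, 1.62, 1.24 and 1.28 in the DHEA-labelled libraries and 1.16, 1.22, 1.10 and 1.19 in the sesame oil libraries. Gabra4 did not overlap by itself and Gabrb1 varied little, so this ratio is not a result separate from that of Gabra4. On the log2 scale this ratio differed by 0.23 between the groups, with a spread within groups of 0.13 (SD), and by 0.14 without DHEA library 4. The ratio of Gabrd to Gabra4, partners in the extrasynaptic receptor, was 0.301 ± 0.0608 in the DHEA-labelled and 0.350 ± 0.0487 in the sesame oil libraries and overlapped, as did that of Gabra4 to Gabra2, at 1.6002 ± 0.211 and 1.30 ± 0.0784. The ratios of Gabra5 to Gabra4, at 1.66 ± 0.0801 and 1.79 ± 0.127, and of Gabrb1 to Gabrb2, at 0.553 ± 0.0395 and 0.596 ± 0.0759, overlapped too. How often ratios of other genes lack overlap was not computed. These shares and ratios are descriptions, given with no test.

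The genes also differed in how much they varied between libraries of the same group. The within-group SD of log2 CPM was smallest for Gabrb1, at 0.06, and 91.5% of the 12248 named genes averaging 100 counts or more had a larger one. It was 0.09 for Gabra2, 0.11 for Gabra4, 0.12 for Gabrb2, 0.15 for Gabra5, 0.17 for Gabrd and 0.18 for Gabra3, against a median of 0.12 over these genes. Gabra3 and Gabrd were thus the 2 whose libraries were least alike. Part of such a spread is counting noise, which is larger at low counts. Gabrb1 averaged 10844.5 counts and Gabrd 605, and the genes compared were not matched for counts. The spread of Gabra4 was unequal, at 13.5 CPM in the DHEA-labelled libraries and 1.95 CPM in the sesame oil libraries.

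**Figure D3:**
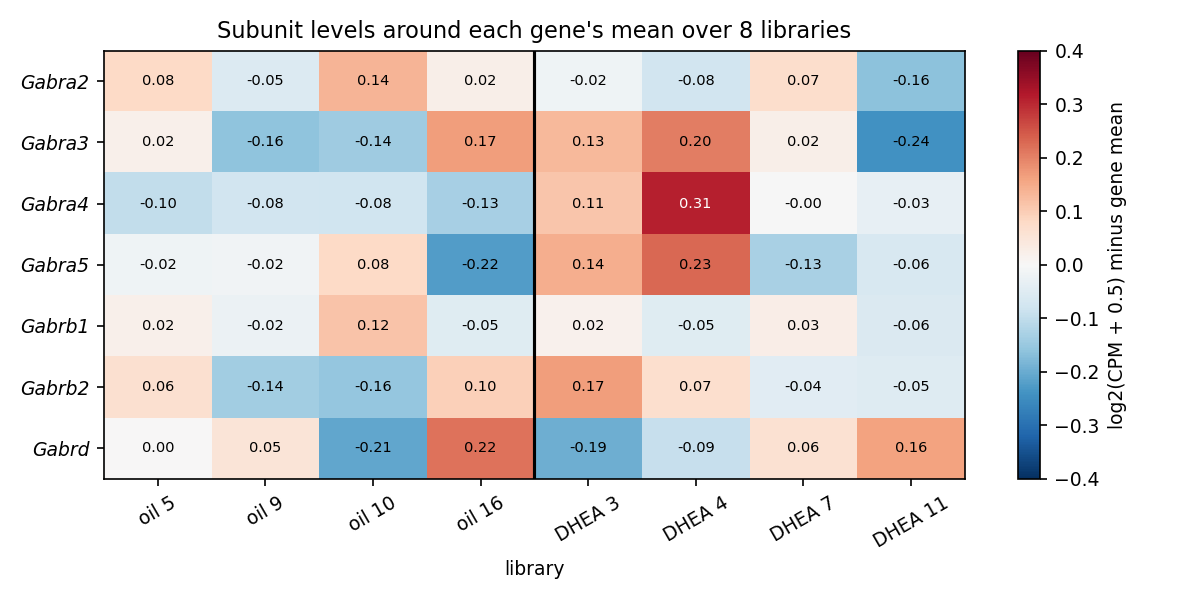
Log2(CPM + 0.5) of each subunit gene minus its mean over the 8 libraries, sesame oil libraries left of the line and DHEA-labelled libraries right of it. Gabra4 and Gabra5 reach 0.31 and 0.23 in DHEA library 4, whereas Gabrd is at -0.09 there, and Gabrb1 stays between -0.06 and 0.12.

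Library by library, the 7 genes did not move together. The likeness of 2 genes was measured as the root mean square difference of their centred log2 values over the 8 libraries, where a smaller value means a closer match. The closest pair of the 7 was Gabra2 and Gabrb1, at 0.06, where Gabrb1 ranked 32 of 12247 genes by likeness to Gabra2 and Gabra2 ranked 208 by likeness to Gabrb1. Gabrb1 itself varied little, with a root mean square of 0.05 around its own mean, so a gene with no variation would be about as close to it. Gabra3 and Gabrb2, on different chromosomes, followed at 0.09, as did Gabra4 and Gabra5. Gabrd was the farthest from each of the other 6, at 0.18 to 0.27.

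The 2 genes most like each of the 7 over the 8 libraries, among genes averaging 100 counts or more, were Xpo1 and Supv3l1 for Gabra2, Cdh20 and Ndufaf1 for Gabra3, and Mturn and Lix1 for Gabra4. For Gabra5 they were Cdc42se2 and Arpc5, for Gabrb1 Nploc4 and Ikzf4, for Gabrb2 Rbm43 and Pik3ca, and for Gabrd Pou3f2 and Dffa. The likeness was 0.02 for Mturn with Gabra4 and for Nploc4 with Gabrb1, and 0.05 for Pou3f2 with Gabrd. These values share libraries and depth and describe patterns over 8 points.

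Beyond the subunits, 22 genes that assemble, traffic or anchor GABA-A receptors gave 5 calls at an unadjusted p under 0.05, 3 higher and 2 lower in the DHEA-labelled libraries, with a median log2 fold change of -0.03. The background is 9.31% of all genes tested and 15.7% of those averaging 100 counts or more, and the number fell to 3 without sesame oil library 10 and to 3 without sesame oil library 16. The 3 higher ones were Gabarap, which binds the receptor and takes part in receptor trafficking, at 0.18 (139 ± 13.9 against 123 ± 5.13 CPM), Plcl1, which binds Gabarap and beta subunits, at 0.25 (51.9 ± 6.18 against 43.7 ± 4.42 CPM), and Trak2, a kinesin adaptor, at 0.15 (293 ± 26.9 against 264 ± 6.03 CPM). The 2 lower ones were Shisa7, an auxiliary subunit of the receptor, at -0.27 (148 ± 23.7 against 178 ± 11.4 CPM), and Hap1, which returns internalized receptors to the membrane, at -0.25 (135 ± 17.7 against 159.8 ± 15.4 CPM). Their adjusted p (edgeR) lay between 0.357 and 0.496, and all 5 overlapped between the groups. Gephyrin (Gphn), the main scaffold of inhibitory synapses, had a log2 fold change of -0.02, and the most abundant genes of the list per length, Gabarapl1 and Nsf, had 0.07 and -0.06.

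Of 9 genes for GABA synthesis, uptake and breakdown, 0 reached an unadjusted p under 0.05 and the median log2 fold change was -0.01. The GABA-degrading enzyme Abat, among the most abundant of the list per length, had a log2 fold change of 0.08. Of 6 genes of the metabotropic GABA-B receptor and its auxiliary subunits, 0 reached it and the median was -0.05, with Gabbr1 at -0.01 and Gabbr2 at -0.11. The GABA-B list gave 1 call without DHEA library 7, 1 without sesame oil library 9 and 1 without DHEA libraries 3 and 4. The synthesis, uptake and breakdown list gave 1 call without DHEA library 11. No gene of these 3 lists had an adjusted p under 0.05 in edgeR. Groups without overlap, a state shared by 8.46% of genes averaging 100 counts or more, were found for Abat, at 281 to 289 CPM in the DHEA-labelled and 257 to 274 CPM in the sesame oil libraries, and for Trak1, a kinesin adaptor related to Trak2 that is named after its values were seen, at 170.2 to 185 and 187 to 203 CPM.

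Marker genes of other cells were compared in the same fit, since a bulk library cannot tell fewer cells of a type from less RNA per cell. Against a background of 8.08% of genes averaging 100 counts or more that were higher at an unadjusted p under 0.05, and 15.7% in either direction, the 8 myelin markers all had an unadjusted p under 0.05 and were higher in the DHEA-labelled libraries, with a median log2 fold change of 0.40. Their summed level was 6679, 8429, 6608 and 6945 CPM in the DHEA-labelled libraries and 5338, 6403, 5305 and 4502 CPM in the sesame oil libraries, without overlap. Mal, a myelin membrane protein, was at 330 to 424 CPM in the DHEA-labelled and 218 to 298 CPM in the sesame oil libraries, and Cldn11, Mbp, Mog, Mag, Mobp and Cnp were also among the 8. The myelin sum was highest in DHEA library 4, the library with the highest Gabra4 and Gabra5, and its part in those values was not tested.

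The astrocyte list gave 5 of 7 genes higher (Gfap, Slc1a3, Gja1, Gjb6 and S100b; median log2 fold change 0.17), the microglia list 3 of 6 (among them P2ry12 and C1qa; median 0.18) and the endothelium list 4 of 6 (Pecam1, Slco1a4, Ly6c1 and Itm2a; median 0.32), all by unadjusted p under 0.05 and none by adjusted p in edgeR, beside the same background of 8.08%. The most abundant gene per length was Slc1a3 for astrocytes at 102 FPKM and Itm2a for endothelium at 36.4 FPKM. Summed levels ranged from 1624 to 1919 CPM in the DHEA-labelled and 1429 to 1665 CPM in the sesame oil libraries for astrocytes, from 316 to 420.4 against 289 to 335 CPM for microglia and from 297 to 367 against 270.1 to 301 CPM for endothelium, and all 3 overlapped. Library 4 held the highest sum of each. The 6 choroid plexus markers gave 0 calls but ran from 93.9 CPM in DHEA library 4 to 4493 CPM in DHEA library 3, with Ttr, at 1601 FPKM, making up 89.2% of the sum. No marker gene of these lists was at 3 counts or fewer in every library.

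**Figure D4:**
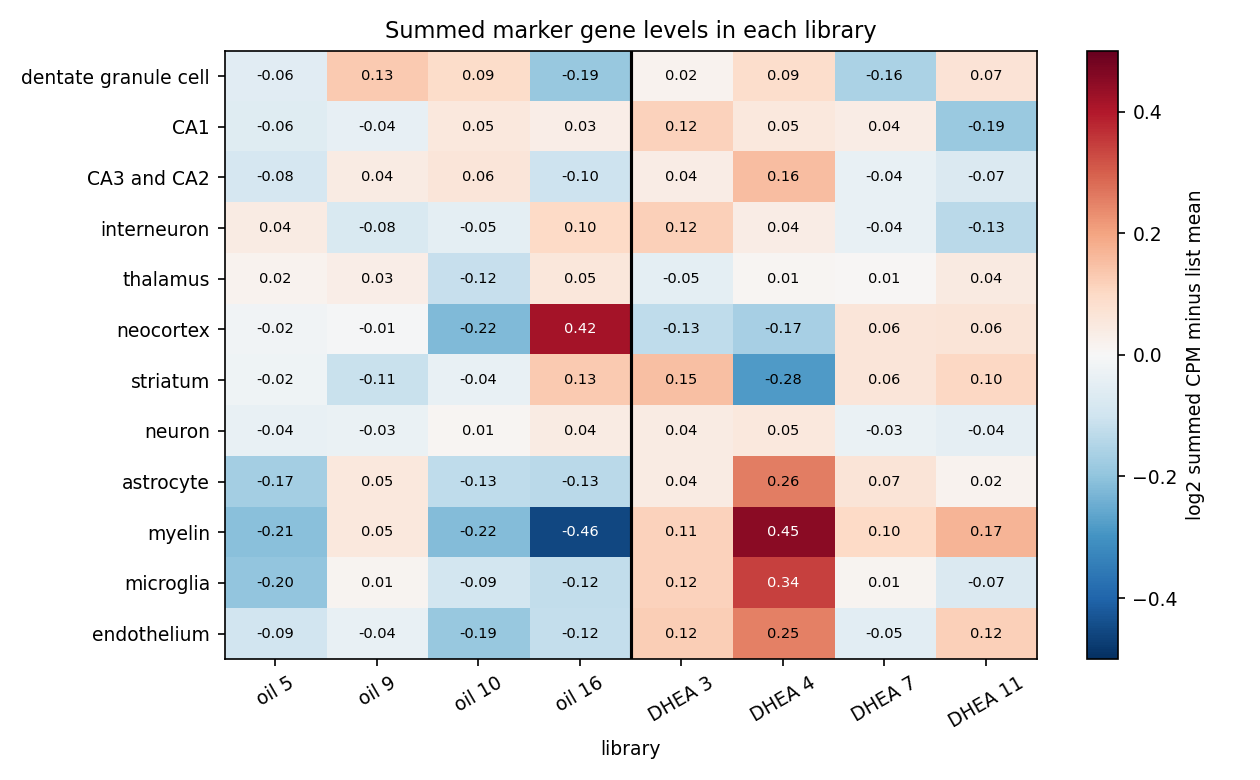
Log2 of the summed CPM of each marker list minus its mean over the 8 libraries, sesame oil libraries left of the line and DHEA-labelled libraries right of it (choroid plexus left out for its range). Myelin is the row without overlap between the groups, from -0.46 to 0.05 in sesame oil and from 0.10 to 0.45 in DHEA-labelled libraries, and the glial and endothelial rows are highest in DHEA library 4.

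The calls in the neuronal lists are to be read beside the background of 15.7% called in either direction, 8.08% higher and 8.46% without overlap among genes averaging 100 counts or more. Of 8 pan-neuronal markers, Rbfox3 was the one called, at -0.16 with 221 ± 5.65 CPM in the DHEA-labelled and 247 ± 5.73 CPM in the sesame oil libraries, which did not overlap, and the summed level, led by Snap25 at 715 FPKM, overlapped (median log2 fold change of the list -0.01). Of 8 dentate granule cell markers, 1 was called (Tdo2, 0.44) and the median was 0.03. Of 6 CA1 markers measured, 2 were called (Man1a, 0.24, and Spink8, 0.32; median 0.00), and of 8 CA3 and CA2 markers, 2 (Bok, 0.24, and Cpne4, 0.16; median 0.04). All 5 of these subfield genes were higher in the DHEA-labelled libraries by unadjusted p only. The dentate sum, at 471, 494, 417 and 488 CPM in the DHEA-labelled and 447, 509, 495 and 408 CPM in the sesame oil libraries, was highest in sesame oil library 9 and lowest in sesame oil library 16, whereas Gabrd and Gabra4, the subunit genes best known from granule cells, were highest in sesame oil library 16 and DHEA library 4.

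None of 10 interneuron markers (led by Cck at 150.5 FPKM; median 0.02), 10 thalamus markers (median 0.07) or 8 striatum markers (led by Ppp1r1b at 26.1 FPKM; median 0.02) was called. In the thalamus list Cplx1, which hippocampal interneurons and other neurons also express, made up 74.9% of the sum at 218 FPKM. Of 8 neocortex markers, led by Lamp5 at 13.1 FPKM, Fezf2 was called, at -0.39 with an unadjusted p under 0.05 (adjusted p = 0.245, edgeR), and 1 call of 8 is near the background of 15.7% given above. Sesame oil library 16 had the highest neocortex sum, 268 CPM against 173 to 210.0 CPM elsewhere. How far the amount of neighbouring tissue or of glia in each dissection bears on the subunit values was not tested.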

How the data were processed

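Gene expression was measured by paired-end RNA-seq of poly(A) RNA from 8 hippocampal libraries, extracted with TRIzol. The submitters' processing notes name fastp, HISAT2, HTSeq and build GRCm39, with versions not given in the sources used here. Raw counts and FPKM of each gene were deposited by the authors as tables of the whole series. Both were used, counts for tests and FPKM for levels between genes. The library numbers in the titles do not pair the groups. Nothing in the labels gives a batch.

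The members and gene lists were chosen with earlier results of these data known. Genes with at least 1 count in all were tested with the quasi-likelihood test of edgeR 4.0.16 in R 4.3.3 (TMM normalization, no covariate, Benjamini-Hochberg adjustment over 27612 genes), which was tested on simulated data. CPM of the 7 genes was also compared by two-sided exact permutation over the 70 allocations. DESeq2, the tool named by the study and run here in version 1.42.0, and limma 3.58.1 on log2(FPKM + 1) and log2(FPKM + 0.1) were alternatives, as were other filters and scalings, thinning to the smallest total, removal of each library's GC trend (lowess span 0.3, GC known for 92.7% of genes averaging 10 counts or more), and each library left out. Named genes were the 7 members, all other GABA-A subunits, GABA genes with an unadjusted p under 0.05, the 2 most abundant per length of each list, the 2 most alike genes per member, and for marker lists the most abundant gene and those with an unadjusted p under 0.05; Gphn was added after its values were seen. Of 156 listed genes 155 were in the files, and some genes of the lists, counted in them, are not reported here by name. Sequences and gene order came from RefSeq on GRCm38.p6, which differs from the build of the counts, and the motif search used both strands. Gabrd was not analysed for its promoter. Total counts of 31483772 to 38038361 per library set the counting precision. Replicates of a group differed by more than sampling noise in every pair. The labels do not say that each library is 1 mouse. The study gives n = 4 per group and describes dividing the hippocampal tissue of each mouse, with a portion going to RNA-seq. The p-values measure only the spread between these samples, which may be partly technical.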

Additional observations from a re-analysis of the deposited data

Results flagged for a closer look

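Of 76 groups of 4 values examined for a value far from the other 3, 1 was flagged, where about 3.8 would be by chance. On the first principal component, sesame oil library 9 lay at 3.62 and the other 3 sesame oil libraries at 9.95 to 10.04, a gap of 0.985 of the range. No group of the 7 subunit genes was flagged.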

How the results depend on the processing

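Of the 18 alternatives, Gabra4 kept a higher level in the DHEA-labelled libraries in 18, with a log2 fold change of 0.07 to 0.24. Its unadjusted p was under 0.05 in 16, among them the fit with the GC trend removed, at 0.0494 (edgeR). The exceptions were DHEA library 4 left out (0.12) and DHEA libraries 3 and 4 left out together (0.07), an alternative chosen after seeing the data. In that alternative Gabra3 was at -0.0876, Gabra5 at -0.0634, Gabrb2 at -0.0250 and Gabrd at 0.0862, each with the sign turned. Gabra2 was at -0.0974 and Gabrb1 at -0.0393 there, both with the sign kept. The median of the 7 genes was then -0.0393, the number of the 7 with an unadjusted p under 0.05 was 0 and 1 gene of all tested passed an adjusted p under 0.05. With single libraries left out, Gabra2 ranged from -0.133 to -0.0542, Gabra3 from -0.00691 (without DHEA library 4) to 0.144, Gabra5 from 0.0198 (without DHEA library 4) to 0.149, Gabrb2 from 0.0217 to 0.104, Gabrb1 from -0.0619 to 0.000841 (without sesame oil library 10), and Gabrd from -0.105 to 0.0320 (0.0253 without DHEA library 3 and 0.0320 without sesame oil library 16). The number of the 7 with an unadjusted p under 0.05 then ranged from 0 to 1 and their median log2 fold change from -0.00691 to 0.0962, and the number was 2, Gabra2 and Gabra4, with the GC trend removed. Medians ranged from 0.0647 to 0.178 for the other subunits and from -0.0449 to 0.0134 for the GABA-B list, and for the other subunits were 0.0136 and 0.0417 with limma-trend on FPKM at offsets of 1 and 0.1. Genes with an adjusted p under 0.05, 0 in edgeR beside 2571 at an unadjusted p under 0.05, numbered 153 in DESeq2, 4 with robust moderation and 0 to 93 with single libraries left out (93 without DHEA library 7, 12 without DHEA library 11); none of the 7 was among them, their lowest adjusted p being 0.144. Genes lower at an unadjusted p under 0.05 ranged from 882 to 1891 with single libraries left out, the highest without DHEA library 7. By the thresholds of the study, 164 genes were called in DESeq2, 284 with at least 10 counts in all, 62 with filterByExpr and 1 and 48 with limma-trend at offsets of 1 and 0.1. The cause of these changes was not tested, except that the filters test fewer genes. Taken over the 4 alpha genes alone, an alternative chosen after seeing the data, the share of Gabra4 differed by 1.94 percentage points between the groups, against 0.987 over the whole alpha class. No paired analysis was possible because the groups share no library numbers. Depth limits Gabra6, Gabre, Gabrp, Gabrr1 and Gabrr3, with mean counts under 10, and with 4 libraries a group the intervals of the 7 genes span differences of up to 0.35 on the log2 scale.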
